A study of Homo sapiens with 2 samples.

Results

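The metallothionein genes and MTF1, the transcription factor that drives them, were followed in MDA-MB-231, an established cell line derived from a highly invasive breast cancer. The set was 9 genes chosen by name: MT1A, MT1E, MT1F, MT1G, MT1H, MT1M, MT1X, MT2A and MTF1. The probe annotation gave 1 probe to each of 8 of them, out of 48701 probes on the array, and named none for MT1A. RNA had been hybridised to an Illumina HumanWG-6 beadchip, a 1-colour array on which each probe gives 1 brightness reading. One culture was transfected with 20 nM of an siRNA against NSD3L, the long form of NSD3, which is a histone lysine methyltransferase, and the other with a nonspecific control siRNA whose dose the labels do not state. Both were grown in medium with fetal calf serum, penicillin and streptomycin, transfected 2 times 48 h apart with the same reagent, and collected 48 h after the later transfection. No metal treatment is named in the labels. There was 1 array per group, so no test was possible, and every difference below compares 2 arrays rather than 2 conditions with a known spread.

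Metallothioneins are small cysteine-rich proteins that bind zinc and copper and take up toxic metals such as cadmium. Their genes lie together on the long arm of chromosome 16 and are induced by zinc, heavy metals, glucocorticoids and oxidative stress. MTF1 senses zinc through its zinc fingers, enters the nucleus and binds short sequences in metallothionein promoters called metal response elements. MT2A and the MT1 genes are close copies of one another, so a probe designed for one may also catch transcripts of another. Probe sequences were not used here, and this was not tested.

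The promoters are shown first because the metal response element is the feature by which MTF1 reaches these genes. RefSeq promoter sequence (GRCh38.p14) was matched for 4 of the 9 genes, and the 250 bases before each annotated start site were read on the strand of the gene. Both forms of the element's core, TGCACNC and TGCGCNC, were searched on both strands, with N for any base, and their matches stand in capitals. All 4 matched genes are printed. MT2A and MT1X have the brightest probes of the set, the MT1H probe read at background, and MTF1 is the regulator itself.
MT2A, chr16:56608334-56608583, plus strand: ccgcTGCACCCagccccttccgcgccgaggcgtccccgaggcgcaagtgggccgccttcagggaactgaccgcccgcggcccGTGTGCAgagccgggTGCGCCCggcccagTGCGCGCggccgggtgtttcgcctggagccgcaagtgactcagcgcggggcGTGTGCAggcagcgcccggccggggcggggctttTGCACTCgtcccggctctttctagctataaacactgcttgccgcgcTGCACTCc
MT1X, chr16:56682220-56682469, plus strand: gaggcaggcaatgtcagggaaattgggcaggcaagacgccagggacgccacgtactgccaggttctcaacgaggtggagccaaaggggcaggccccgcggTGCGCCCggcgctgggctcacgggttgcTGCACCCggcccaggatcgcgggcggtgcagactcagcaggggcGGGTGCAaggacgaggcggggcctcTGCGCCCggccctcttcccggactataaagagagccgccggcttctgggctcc
MT1H, chr16:56669564-56669813, plus strand: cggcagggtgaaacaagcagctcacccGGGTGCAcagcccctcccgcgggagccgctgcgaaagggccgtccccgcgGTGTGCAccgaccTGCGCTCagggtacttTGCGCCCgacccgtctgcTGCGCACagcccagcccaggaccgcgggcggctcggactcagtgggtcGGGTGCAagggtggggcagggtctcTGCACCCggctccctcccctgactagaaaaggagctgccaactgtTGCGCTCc
MTF1, chr1:37859593-37859842, minus strand: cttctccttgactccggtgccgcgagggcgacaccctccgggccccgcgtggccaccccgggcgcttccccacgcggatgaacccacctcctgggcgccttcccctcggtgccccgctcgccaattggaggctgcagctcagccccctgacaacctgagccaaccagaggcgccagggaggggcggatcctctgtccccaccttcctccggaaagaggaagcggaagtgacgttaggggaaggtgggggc

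The MT2A window held 7 matches, 5 of them on the strand of the gene and 2 on the other. The MT1X window held 4 matches and the MT1H window 8, and no matches overlapped within these windows. The MTF1 window held 0. Among 35116 promoters of the same length, 24.8% held at least 1 match, 0.37% at least 4 and 0.0313%, or 11 promoters, at least 7. The AP-1 sequence TGACTCA was in the MT2A window, where it is printed in lower case, and on either strand in 4.2% of all promoters. A match is only a run of letters, and no relation to the readings of the array was sought.

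The target of the siRNA, NSD3, read near the background on all 3 of its probes. A floor was placed where the background of each array ended, at 40.9 with the NSD3L siRNA and at 41.0 with the control, and a ratio was taken only where both readings passed it. The long-isoform probes read 41.6 against a control of 45.0 (ILMN_1807379) and 37.6 against 41.9 (ILMN_1666715). The short-isoform probe (ILMN_1697919) read 40.8 against 55.3. All 3 were lower with the NSD3L siRNA, with the largest drop on the short-isoform probe, although the siRNA was against the long form. The readings were too near the floor to show whether NSD3L was depleted, or by how much. Of 10 markers of the MDA-MB-231 line, 9 were above the floor on both arrays, including VIM, CD44 and AXL, against 4 of 9 luminal breast, 3 of 6 blood and 1 of 7 fibroblast markers that had a probe. The summed reading of the blood markers was 1401 on the NSD3L siRNA array and 1391 on the control array, that of the fibroblast markers 283 and 277, and that of the luminal markers 1504 and 1305. The MDA-MB-231 markers summed to 25391 and 23676. These sums include markers that read at or under the floor, so background is part of them. Of the other 3 lists, the markers above the floor on both arrays were KRT19, CDH1, ERBB3 and XBP1 (luminal), CD14, CD68 and LYZ (blood) and PDGFRB (fibroblast). Their part in the results was not tested.

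Of the 8 probes, 6 were above the floor on both arrays and 2 were at or under it on both. The measured probes differed little between the arrays: 4 were higher with the NSD3L siRNA and 2 lower, the largest difference was 1.28-fold, and 0 of 6 passed 1.5-fold. In whole cultures, fewer cells that express a gene and less RNA per cell cannot be told apart. Over the 10548 genes of the whole array that were measured, 3.63% were more than 1.5-fold higher and 4.06% more than 1.5-fold lower, so a count of 0 among 6 is near that background. At the 2-fold threshold of the series description the count was also 0, beside 0.341% of genes higher and 0.607% lower. By direction alone, 66.7% of the 6 were higher, against 49.2% of all measured genes, while 50.7% of all genes were lower.

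**Figure D1:**
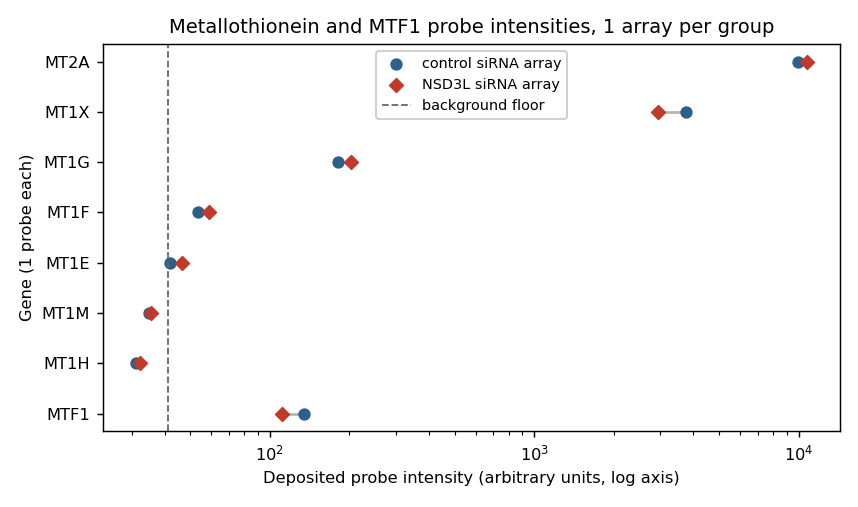
Deposited intensity of the 1 probe of each gene on the control siRNA array (circles) and the NSD3L siRNA array (diamonds), on a log axis, with the background floor dashed. MT2A and MT1X lie far to the right of the floor, MT1M and MT1H to the left of it on both arrays, and each pair of points lies close together.

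MT2A, the metallothionein usually most abundant in human cells, had one of the brightest probes on either array. It read 10746 on the NSD3L siRNA array and 9953 on the control array, for a log2 ratio of 0.11, or 1.08-fold higher. That put it at rank 19 of 48701 on the NSD3L siRNA array and rank 25 on the control array. The deposited arrays have exactly equal sorted values over their 7932 brightest ranks, with no tolerance, so the ratio of a probe this bright is a change of rank, here of 6 places. The SD of the log2 ratio was 0.34 in the brightest of 10 equal groups of measured probes. The MT2A difference was less than that SD, which describes the scatter between probes on these 2 arrays and is not a replicate error.

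MT1X, another widely expressed isoform, went the other way. Its probe read 2944 on the NSD3L siRNA array and 3760 on the control array, for a log2 ratio of -0.35, or 1.28-fold lower. Its rank was 278 on the NSD3L siRNA array and 200 on the control array. The difference was barely larger than the SD of 0.34 among similarly bright probes. The log2 ratio of MT2A exceeded that of MT1X by 0.46, the 2 having opposite signs. No spread was computed for a difference between 2 probes, so this gap does not set the pair apart.

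MT1G, a zinc-inducible isoform, read 203 on the NSD3L siRNA array and 181 on the control array. Its log2 ratio was 0.17, beside an SD of 0.40 among probes of similar brightness. MT1F read 58.9 and 53.6, a log2 ratio of 0.13 beside an SD of 0.23. Both were higher with the NSD3L siRNA by less than 1 SD of their brightness group.

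MT1E, an isoform described in breast cancer cell lines, read 46.5 on the NSD3L siRNA array and 42.0 on the control array, just over the floor. Its log2 ratio was 0.15, beyond the SD of 0.12 among probes of similar brightness. Both readings of a probe had to pass the floor, which narrows the SD this near to it. Passing that SD therefore does not set MT1E apart. The deposited intensities keep a background, which draws ratios toward 0 for probes this dim. With the most frequent intensity of each array subtracted, 34.8 and 34.9, the log2 ratio of MT1E was 0.71 and so past 1.5-fold, that of MT1F was 0.36 and that of MT1G 0.21. The same step left MT2A at 0.11 and MT1X at -0.36. The size of the MT1E difference therefore depends on the background taken. Its direction could not change in this step, because the subtracted values were nearly equal and lay below both readings.

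MT1M read 35.4 on the NSD3L siRNA array and 34.8 on the control array, and MT1H 32.2 and 31.2. Both probes were at or under the floor on both arrays, so no ratio is given. Whether these genes were silent cannot be read from them, because a probe's brightness also depends on how well it binds. For the same reason the readings do not rank the genes by transcript number.

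MTF1, the regulator, read 111 on the NSD3L siRNA array and 134 on the control array, for a log2 ratio of -0.28 or 1.21-fold lower. The SD among probes of similar brightness was 0.37, so the difference was within it. Of the 6 measured probes, 4 lay within 1 SD of their brightness group, and the other 2, MT1X and MT1E, lay just beyond it in opposite directions. The share of all measured probes beyond 1 SD was not counted, so this does not set those 2 apart. The median log2 ratio was 0.12 over the 6 measured genes and 0.08 over all 8 probes with no floor, against a median of -0.004 over all measured genes.

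**Figure D2:**
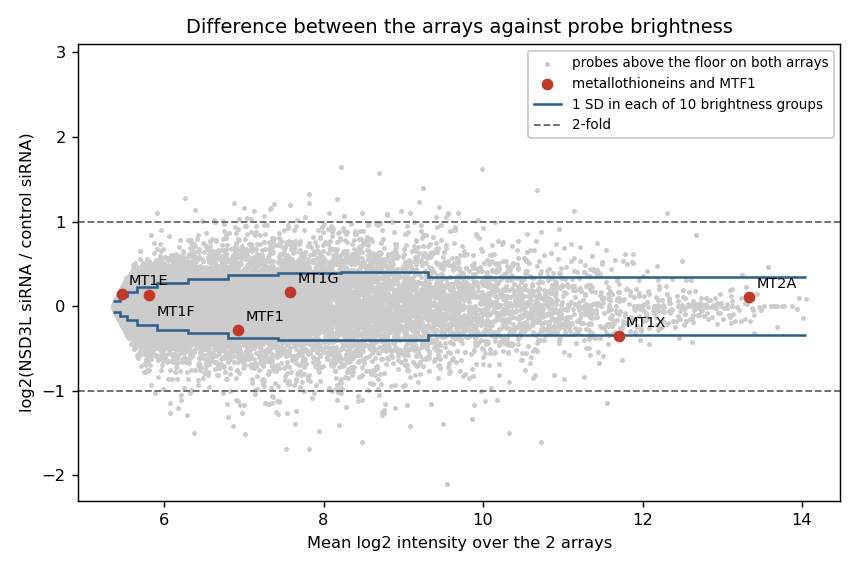
The log2 ratio of NSD3L siRNA over control against mean log2 intensity, for each probe above the floor on both arrays (grey), with 1 SD in each of 10 brightness groups (blue steps) and 2-fold dashed. The 6 measured members (red) lie inside the cloud, MT1X and MT1E at the edge of the SD band and the other 4 within it.

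The probes of MT1B, MT1L, MT3 and MT4, further genes of the cluster, were at or under the floor on both arrays. MT3, the brain isoform, read 34.5 on the NSD3L siRNA array and 33.3 on the control array, and MT4, the isoform of stratified epithelium, 37.7 and 35.9. MT1B read 39.3 and 37.4, and the pseudogene MT1L 30.4 and 36.2. Within the cluster, bright probes thus stood beside probes at background on both arrays, with MT2A and MT1X as the bright ones.

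Genes on either side of the cluster were compared as its neighbours. Of 8 with a probe, 6 were measured, 2 higher and 4 lower, with a median log2 ratio of -0.13 and 0 past 1.5-fold, where 49.2% of all measured genes were higher and 50.7% lower. The median depended on the processing: it was -0.04 with no floor, -0.04 by means over probes and -0.24 with the most frequent intensity subtracted. NUP93, a nuclear pore gene next to MT1X, read 553 on the NSD3L siRNA array and 468 on the control array, for a log2 ratio of 0.24. HERPUD1, a gene of the endoplasmic reticulum stress response, read 362 and 453, a log2 ratio of -0.32. BBS2 and OGFOD1, on the other side, had log2 ratios of -0.23 and -0.25, the other 2 OGFOD1 probes giving -0.11 and 0.21. Neither the cluster nor its neighbours went one way.

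**Figure D3:**
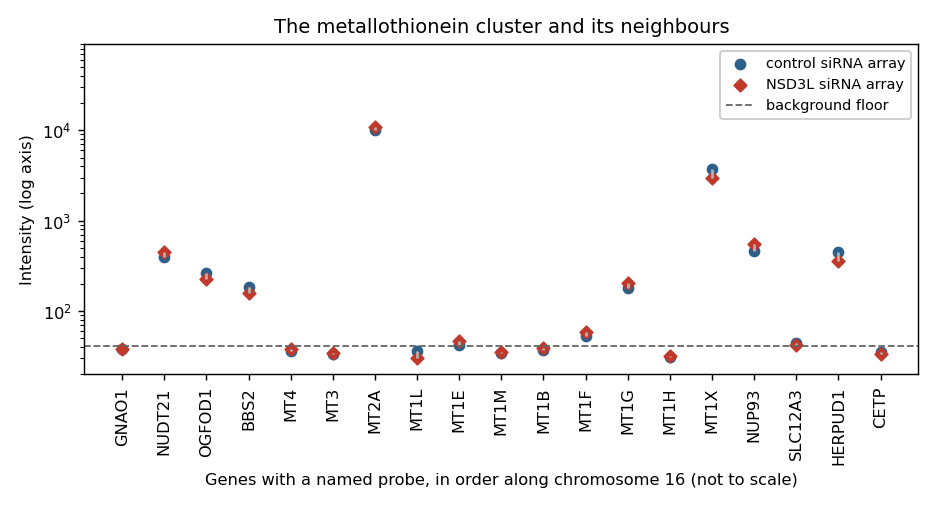
Intensity on both arrays (log axis) for the metallothionein genes and neighbouring genes with a named probe, in their order along chromosome 16 and not to scale, each by its brightest probe. MT2A and MT1X stand high. MT1G, which is between them along the chromosome, lies lower than both at 203 and 181. The other cluster genes lie at or near the floor (dashed), and the arrays lie close together for every gene.

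Genes other than metallothioneins that have been linked to MTF1 were read next, from a list chosen by name. All 9 were measured, 3 higher and 6 lower, with a median log2 ratio of -0.10, where 49.2% of all measured genes were higher and 50.7% lower. In it 1 gene was more than 1.5-fold higher and 1 more than 1.5-fold lower, beside 3.63% and 4.06% of all genes. SLC30A1, the zinc exporter that MTF1 induces, read 111 on the NSD3L siRNA array and 121 on the control array, for a log2 ratio of -0.12. SLC39A10, a zinc importer that MTF1 represses in mouse cells, read 138 and 209, a log2 ratio of -0.59 or 1.51-fold lower. The member past 1.5-fold in the other direction was HSPA1B, a heat shock protein gene, at 2004 and 1260 with a log2 ratio of 0.67, and its near-identical copy HSPA1A had 0.11. PGF, a placental growth factor gene, had -0.51 and GCLC, an enzyme of glutathione synthesis, -0.34.

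Most measured zinc exporters were lower and most importers higher. Of 10 exporter genes 6 were measured, 1 higher and 5 lower, with a median log2 ratio of -0.14 and 0 past 1.5-fold. SLC30A7, which loads zinc into the Golgi, read 570 on the NSD3L siRNA array and 712 on the control array, for a log2 ratio of -0.32, and SLC30A3 and SLC30A9 had -0.19 and -0.16. Of 14 importer genes 11 were measured, 9 higher and 2 lower, with a median of 0.18, and 1 was more than 1.5-fold higher and 1 more than 1.5-fold lower. The importer more than 1.5-fold lower was SLC39A10, given above at -0.59. SLC39A14, a zinc and iron importer, read 328 and 198, a log2 ratio of 0.73 or 1.65-fold higher, SLC39A1 had 0.50 and SLC39A3 had 0.43 by its brighter probe and 0.02 by its dimmer one. By direction alone, 49.2% of all measured genes were higher and 50.7% lower. Past 1.5-fold, 3.63% of them were higher and 4.06% lower. Each measured exporter differed by less than the SD of its brightness group. SLC39A1, SLC39A3 by its brighter probe, SLC39A7, SLC39A10, SLC39A13 and SLC39A14 differed by more, and the other measured importers by less. SLC39A13 read 45.1 on the NSD3L siRNA array and 41.7 on the control array, just over the floor. The share of all measured probes beyond 1 SD was not counted.

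Of 13 measured copper handling genes 2 were higher and 11 lower, with a median log2 ratio of -0.08, where 50.7% of all measured genes were lower and 4.06% more than 1.5-fold lower. ATP7A, the copper pump of the secretory pathway, read 55.3 on the NSD3L siRNA array and 87.2 on the control array, for a log2 ratio of -0.66 or 1.58-fold lower, and was the member past 1.5-fold. ATOX1, the copper chaperone, and SLC31A2, a copper transporter, had -0.25 and -0.27, and STEAP3, a metalloreductase, 0.27. Only ATP7A differed by more than the SD of its brightness group, which was 0.28. Each of the other copper genes lay within the SD of its own group.

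**Figure D4:**
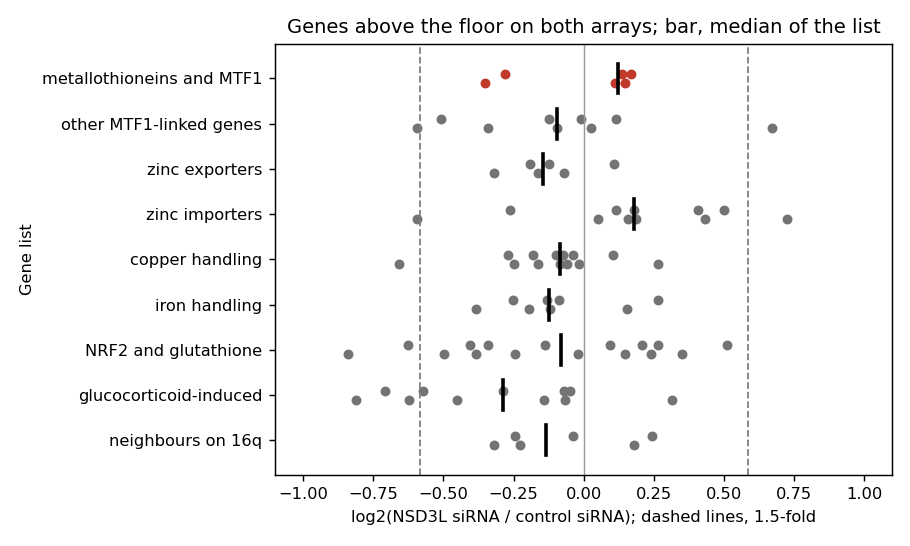
The log2 ratio of NSD3L siRNA over control for each measured gene, by gene list, with the list median as a black bar and 1.5-fold dashed. The metallothioneins and MTF1 (red) lie between -0.35 and 0.17, inside 1.5-fold, with most zinc importers to the right of 0 and most copper genes to its left.

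The genes nearest to MT2A in both readings were housekeeping genes. By Euclidean distance over the log2 intensities of the 2 arrays, these were RPL10, a ribosomal protein gene, at 0.07, TUBB, a tubulin gene, at 0.10, and RPS16, another ribosomal protein gene, at 0.13. Their log2 ratios were 0.02, 0.23 and -0.05. With 2 arrays the measure says only that these probes were about as bright on both.

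**Figure D5:**
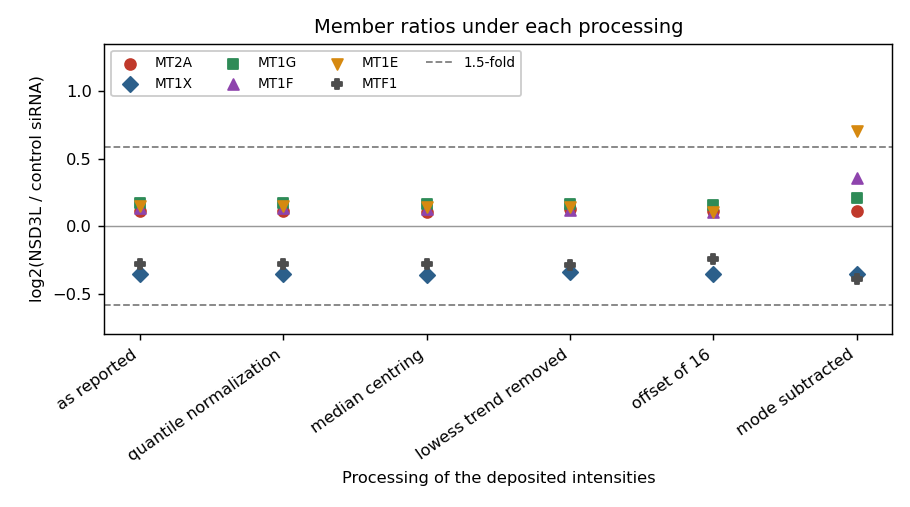
The log2 ratio of each measured member as reported and under 5 other ways of computing it from the deposited intensities, with 1.5-fold dashed. MT1E lies at 0.71 where the most frequent intensity (the mode) is subtracted and at 0.15 as reported, and quantile normalization changes almost nothing because the arrays already shared their sorted values.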

How the data were processed

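The authors' deposited table held 1 linear intensity per probe for 48701 probes on 2 arrays. The submitters' processing notes name BeadStudio. How the background was corrected and how the arrays were normalized is not given in the sources of this work. The sorted values of the arrays differed by at most 0.025 on the log2 scale at any rank. The number of arrays limits the precision.

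Genes were named from the platform annotation, which gave 1 symbol to 23687 probes, several to 35 and none to 24979. Its header names no array version, and whether it is the version in the series description was not established. Symbols were updated through gene numbers, 23651 of which were in the RefSeq table. The log2 ratio was computed with no offset. The floor of an array was 2 times its most frequent intensity (the mode) less the 1st percentile, with the mode taken by kernel density below the 75th percentile, an estimator chosen with the data known. It left 16492 probes on both arrays. A gene was taken by its brightest probe. The SD of the ratio was computed in 10 groups of probes by brightness. The ratio step was run on simulated data with large changes in bright probes only. That run checks the arithmetic and says nothing of small differences or dim probes.

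The members and lists were chosen with earlier results of these data known. The text names every member and NSD3 probe, the 4 largest differences in each of 8 of the 9 lists, the other one having no measured gene, and the 3 genes nearest to the brightest member. The cell type markers named, HSPA1A, NFKBIA, NR3C1, ERRFI1, ZBTB16, TSC22D3, FKBP5, DUSP1 and the probes of further metallothioneins were named after their values were seen. So were SLC39A7 and SLC39A13. Alternatives were other floors and none, quantile normalization, centring, a lowess trend (span 0.3), an offset of 16, subtraction of the mode, means over probes and other fold thresholds. Tools were Python 3.11.15, pandas 2.3.3, SciPy 1.17.1 and statsmodels 0.14.6.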

Additional observations from a re-analysis of the deposited data

How the results depend on the processing

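The median log2 ratio of the measured members lay between 0.08 and 0.16 under 10 alternatives. With the mode subtracted, 1 member, MT1E, passed 1.5-fold, at a log2 ratio of 0.71, because the step enlarges ratios of dim probes. At a lower fold threshold 1 member, MT1X, passed, and at 2-fold 0 passed. The share of all genes that passed with the mode subtracted or at the lower threshold was not counted. Neither count therefore sets a member apart. Of the alternatives, 5 recompute the ratio of a probe, and another floor changes only which probes have one. Among the 5, quantile normalization could change little on arrays whose sorted values were nearly equal, so the settings say little about stability. With the lowess trend removed MT1X had -0.34, and MT1E had 0.11 with an offset of 16. With the floor at the 75th percentile MT1E was no longer measured. List medians changed by over 1.5 times for 4 lists. Neighbours on 16q had -0.24 with the mode subtracted, -0.23 with the floor at the 75th percentile, -0.04 with no floor and -0.04 by means over probes, zinc importers 0.33 with the mode subtracted, zinc exporters -0.07 with no floor, and NRF2 and glutathione genes -0.14 with the floor at the median or none. No paired analysis was possible because each group had 1 array. MT1M and MT1H had readings at background, which limits what can be said of them.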

Other observations

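Other inducers of metallothionein genes were read through lists chosen by name, which hold known targets and also some regulators. In the glucocorticoid list, 10 of 11 measured genes were lower with the NSD3L siRNA and 1 higher, where 50.7% of all measured genes were lower and 49.2% higher. The median log2 ratio was -0.29, against -0.004 over all measured genes, and the 3 past 1.5-fold were all lower, where 4.06% of all genes were. NR3C1, the glucocorticoid receptor gene itself and not one of its targets, had -0.45. It is counted among the 10 lower genes and in the median. CEBPB, a transcription factor of the acute phase response, read 1218 against a control of 2140, for a log2 ratio of -0.81. SGK1, a kinase of salt transport, had -0.71, CEBPD -0.62 and KLF9 -0.57. ERRFI1 had -0.29, DUSP1 -0.14, TSC22D3 -0.07, FKBP5 -0.07 and ZBTB16 -0.05, and NFKBIA, the inhibitor of NF-kB, 0.32. Each gene from ERRFI1 to NFKBIA in this row differed by less than the SD of its brightness group. ZBTB16 read 42.1 against a control of 43.6, just over the floor. Whether glucocorticoid signalling differed between the cultures was not tested.

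The list of NRF2 and glutathione genes had 16 measured genes, 7 of them higher and 9 lower, and its median was -0.08, with 2 genes more than 1.5-fold lower, beside 4.06% of all genes. NQO1, a quinone reductase and NRF2 target, read 1836 against a control of 3284, for a log2 ratio of -0.84 or 1.79-fold lower. NFE2L2, which encodes NRF2, had -0.63, GSR, the glutathione reductase gene, -0.50 and MAFG 0.51 by its brighter probe and 0.04 by its dimmer one. Iron genes gave 2 higher and 6 lower of 8 measured, a median of -0.13 and 0 past 1.5-fold, where 50.7% of all genes were lower. HMOX1, the haem oxygenase gene that cadmium induces, read 62.4 and 81.5, a log2 ratio of -0.38, TFRC, the transferrin receptor gene, had -0.25 and FTL, the ferritin light chain gene, -0.19. Several of these genes stand in more than 1 list, and no list was tested.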
